A study of Mus musculus with 9 samples.

Results

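The 40 genes described here are immediate-early and heat-shock stress genes, transcripts that cells raise quickly after growth factors, wounding, heat or the separation of a tissue into single cells. They were chosen by name (the array's table writes names in capitals, such as FOS, EGR1 and DUSP4), and the rule uses no measured difference. The choice was made with earlier results of these data known, so shares and medians over the members are given as description only. Of the 40 genes, 35 had at least 1 probe under that name on the Illumina mouse whole-genome BeadChip, 61 probes of 45281. A probe counted as detected where the deposited detection value was above 0.99 on 3 or more of the 9 arrays. By that rule 50 probes for 32 of the genes were detected. The detected probe with the highest mean stood for each of these 32 genes in the main test, among 12670 gene names tested in all.

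RNA came from cells sorted by flow cytometry from mammary glands of 10-week-old virgin C57BL/6 mice. All 9 samples carried the Lgr5-GFP-IRES-CreERT2 allele, which marks cells that use the Lgr5 promoter with green fluorescent protein and also encodes a Cre recombinase that needs a ligand. Lgr5+ basal, Lgr5- basal and luminal cells were measured on 3 arrays each, and the Lgr5 entry of the luminal samples reads wild-type. Replicates 1, 2 and 3 of each group carry the pool numbers 1, 2 and 3, and no treatment is named. How many mice made a pool and how the gates were set is not stated in the labels, and the p-values cover only the variation from pool to pool.

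The mammary duct has an outer layer of basal, myoepithelial cells and an inner layer of luminal cells. Lgr5, a receptor for R-spondins that strengthens Wnt signalling, marks part of the basal layer. Immediate-early genes need no new protein to be switched on: kinases of the MAP kinase pathways act on factors already bound at their promoters, such as serum response factor at the CArG box. Many of the products then act back on the pathway, as phosphatases that switch the kinases off or as proteins that destroy early messages. Heat-shock chaperones are raised by heat-shock factors, which bind inverted repeats of the letters GAA, and they refold or clear damaged proteins.

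On each array 15235 to 17423 of 45281 probes were detected, and the number of arrays limits the precision. All 10 basal keratin and adhesion markers were higher in each basal population than in luminal cells, and all 12 luminal markers were lower. Luminal replicate 2 stood apart in the basal markers: the log2 of their summed level was 14.4 on that array and 12.3 on both other luminal arrays, against 16.5 to 16.7 on the 6 basal arrays. The luminal markers summed to 16.7 to 16.9 on the luminal arrays and 13.6 to 13.9 on the basal arrays. Calls that turned on luminal replicate 2 are given below with and without it, and the part of its basal markers in them was not tested. Markers of other cell types were detected as well, but not all of them on the luminal arrays. There 2 to 3 of 6 tested haematopoietic, 2 to 4 of 6 pericyte, 4 to 7 of 10 fibroblast and 11 to 12 of 12 endothelial markers were detected. In the same order the counts were 4 to 5, 5 to 6, 10 and 12 on Lgr5+ basal arrays, and 6, 4 to 6, 10 and 12 on Lgr5- basal arrays. The log2 of the summed level of 12 tested endothelial markers of 14 listed ran from 11.05 to 13.2 in Lgr5+ basal, with replicate 2 highest, from 12.1 to 12.5 in Lgr5- basal and from 10.9 to 11.6 in luminal cells. For 10 fibroblast markers it ran from 12.1 to 12.3, from 13.3 to 13.4 and from 10.7 to 11.1 in the same order. For 6 tested haematopoietic markers of 10 it ran from 9.40 to 10.3, from 9.67 to 10.6 and from 7.85 to 8.53, and for 6 tested pericyte markers of 8 from 10.4 to 10.7, from 9.91 to 10.2 and from 9.70 to 9.99. A summed level follows the brightest markers. The median fibroblast marker ran from 6.38 to 6.96 in Lgr5+ basal and from 6.22 to 6.88 in Lgr5- basal. Between the basal groups 1 of 10 fibroblast and 1 of 6 haematopoietic markers passed, both lower in Lgr5+ basal. Of the pericyte markers 1 of 6 passed, higher in Lgr5+ basal, and of the endothelial markers 0 of 12. This scale has no true 0, so a value above 0 does not show that a marker was expressed. Of the 10 basal markers 6 to 8 were detected on the luminal arrays. Of the 12 luminal markers 10 to 11 were detected on Lgr5+ basal arrays and 11 on Lgr5- basal arrays. The part of other cell types in the results below was not tested. In sorted bulk RNA fewer cells of a type and less RNA per cell cannot be told apart.

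In the comparison of the 2 basal populations, 0 of the 32 genes passed an adjusted p of 0.05 with limma, where 127 of 12670 genes (1.00%) did. An unadjusted p under 0.05 was reached by 3 members, Ier2, Atf3 and Gadd45a, and by 14.0% of all genes. The groups did not overlap for 6 members, with Atf3, Klf4, Dusp1, Ier2 and Ier3 higher and Gadd45a lower on every Lgr5+ array. That is 18.8% of the members, against 21.2% of all genes (11.4% higher and 9.80% lower). It holds for the probe that stands for each gene. The further detected probes of Klf4 differed by 0.002 and -0.06 and that of Gadd45a by -0.08, and on these the basal groups overlapped. The mean of Lgr5+ basal lay above that of Lgr5- basal for 26 of the 32 members and below it for 6, and for 53.7% of all genes it lay above. With arrays centred on their medians in place of quantile normalization the split was 22 to 10, without Lgr5- basal replicate 2 it was 21 to 11, and over every detected probe it was 33 to 17. The median difference of the members was 0.10 on the log2 scale, against 0.02 for all genes, and within pools 1, 2 and 3 it was 0.14, 0.20 and 0.08. Leaving out replicate 2 or replicate 3 of Lgr5+ basal gave 0.161 or 0.163, and leaving out replicate 2 of Lgr5- basal gave 0.0603.

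Both basal populations differed from luminal cells at many members, in both directions. Lgr5+ basal cells were higher at 13 and lower at 7 of the 32 genes, with 12 not passing, where 48.8% of all genes tested passed (24.6% higher and 24.2% lower). With arrays centred on their medians 13 members passed, 9 higher and 4 lower, and without Lgr5+ basal replicate 1 the count was 15. The count over all genes fell too, from 6179 of 12670 to 4190 and 5372. Lgr5- basal cells were higher at 10 and lower at 8, with 14 not passing, where 44.2% of all genes passed (21.7% higher and 22.5% lower). The count without Lgr5- basal replicate 1 was 13, and that of all genes fell from 5601 to 4813. The median size of the difference, regardless of sign, was 0.69 for the members and 0.56 for all genes in the first comparison, and 0.66 and 0.50 in the second. The comparisons use the same luminal arrays, so each one's values are given side by side below. Fold changes are given as sizes, and the sign of the log2 difference shows which group is higher, with n = 3 arrays in each group.

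**Figure D1:**
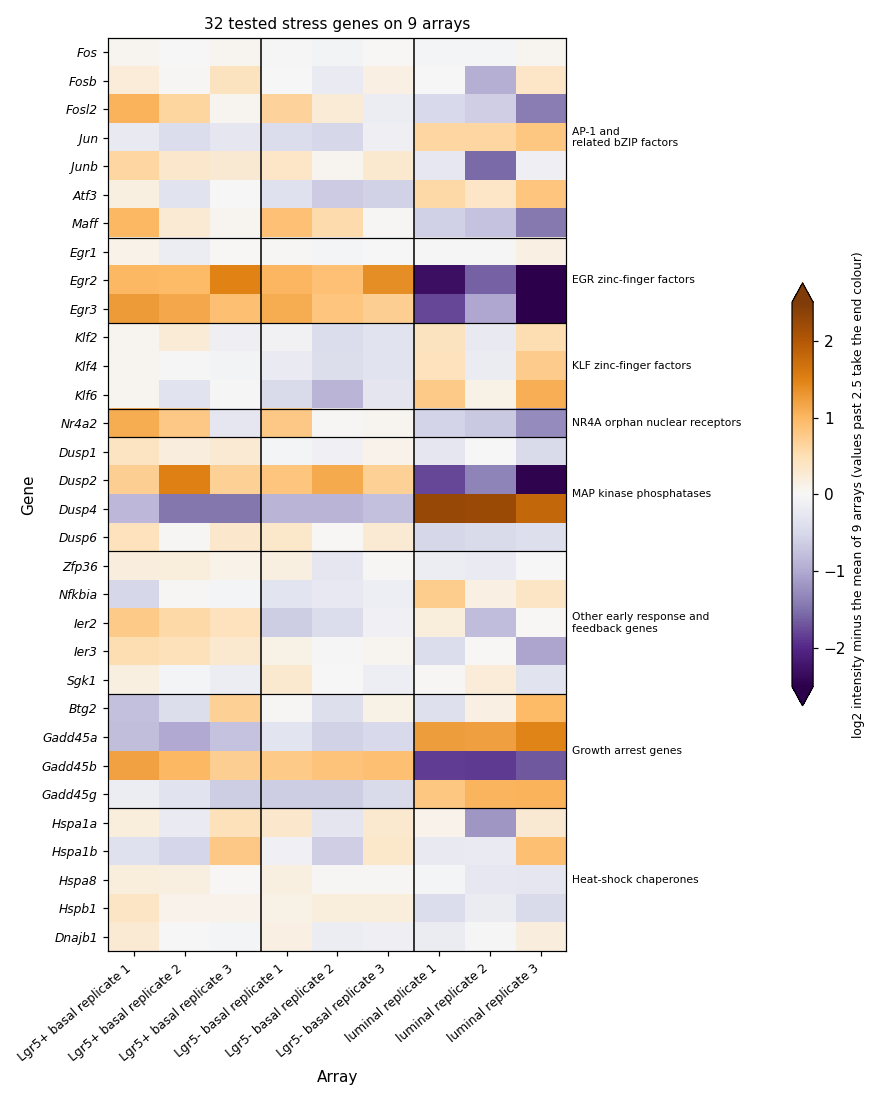
Each row is 1 of the 32 tested genes and each column 1 of the 9 arrays, and the colour is the log2 intensity minus that gene's mean over the arrays, with values past 2.5 in the end colour. The 6 basal columns share their colours for Egr2, Egr3, Dusp2 and Gadd45b (high) and Dusp4 and Gadd45a (low), and the luminal columns are opposite.

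The 3 EGR factors, zinc-finger activators that serve as a second layer after MAP kinase signals, did not move together. Egr2, known for its role in the hindbrain and in myelinating Schwann cells, read 13.08, 13.06 and 13.60 in Lgr5+ basal, 13.11, 12.99 and 13.47 in Lgr5- basal and 9.81, 10.50 and 9.27 in luminal cells (log2 intensity of replicates 1, 2 and 3). All 6 basal arrays stood above all luminal arrays, and the basal groups overlapped each other. The difference from luminal cells was 3.39 ± 0.29 (SE, 10.5-fold, adjusted p = 4.30e-06) for Lgr5+ basal and 3.33 ± 0.29 (SE, 10.1-fold, adjusted p = 4.95e-06) for Lgr5- basal.

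Egr3, which is close to Egr2 in its DNA-binding fingers, read 13.39, 13.28 and 13.05 in Lgr5+ basal, 13.22, 12.96 and 12.85 in Lgr5- basal and 10.34, 11.11 and 8.98 in luminal cells. The luminal arrays were again lowest and were spread more widely than the basal ones, with an SD of 1.08 over the 3 luminal arrays. The difference was 3.09 ± 0.42 (SE, 8.54-fold, adjusted p = 0.00013) for Lgr5+ basal and 2.87 ± 0.42 (SE, 7.3-fold, adjusted p = 0.000231) for Lgr5- basal. Egr1, the member of the family used most often as a marker of acute stimulation, read 14.74, 14.47 and 14.65 in Lgr5+ basal, 14.68, 14.60 and 14.62 in Lgr5- basal and 14.62, 14.61 and 14.80 in luminal cells. It differed from luminal cells by -0.05 in Lgr5+ basal and -0.04 in Lgr5- basal (adjusted p = 0.79 and 0.847), and all 3 groups overlapped. Its probe reached 92.1% of the highest intensity on an array, and whether signal so near the top of the scale narrows a difference was not tested.

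The promoter of Egr2 is shown because the gene had the largest difference above luminal cells among the 32 members and carries a CArG box, the site of serum response factor. The sequence is RefSeq's for GRCm38.p6, 250 bases before to 50 after a gene start, read on the plus strand at chr10:67537619-67537918, and the capitals mark the CArG box, whose first base lies 72 bases before the start. This site lies in 3 of the 5 start windows listed for the gene, and a different CArG box lies in another of them.
Egr2: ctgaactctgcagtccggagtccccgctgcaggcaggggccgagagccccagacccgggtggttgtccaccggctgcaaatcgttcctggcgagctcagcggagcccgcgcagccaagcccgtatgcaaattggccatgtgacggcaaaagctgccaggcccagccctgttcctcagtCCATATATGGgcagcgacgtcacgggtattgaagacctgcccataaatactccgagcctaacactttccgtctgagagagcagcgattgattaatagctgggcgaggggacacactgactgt
A CArG box was searched by its full consensus on both strands and occurs in 1.63% of 32851 promoter windows. Counted by gene, 1.81% of 27025 genes had it in at least 1 window. Among the 34 listed genes with a window it was found for Egr2, Zfp36 and Dusp5. A match describes the letters and shows no binding.

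The AP-1 group holds the Fos and Jun proteins, which bind DNA as pairs joined by a leucine zipper, and their relatives. Of 9 listed genes 7 were tested. Against luminal cells Fosl2, Junb and Maff were higher in each basal population, Jun and Atf3 were lower, and Fos and Fosb did not pass. Fos, the founding immediate-early gene, read 14.70, 14.63 and 14.68 in Lgr5+ basal, 14.60, 14.57 and 14.65 in Lgr5- basal and 14.59, 14.58 and 14.70 in luminal cells. The 9 arrays lay close together and the groups overlapped, with differences from luminal cells of 0.04 and -0.02 (adjusted p = 0.813 and 0.945). Like Egr1, its probe was very bright, up to 87.5% of an array's highest intensity. Fosb, a close relative of Fos, read 14.40, 14.22 and 14.61 in Lgr5+ basal, 14.16, 13.98 and 14.33 in Lgr5- basal and 14.16, 13.23 and 14.55 in luminal cells. Luminal replicate 2 stood alone at the low end, and the differences from luminal cells were 0.43 and 0.17 (adjusted p = 0.254 and 0.678), with its probe at up to 85.2% of the highest intensity.

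Fosl2, a Fos relative whose protein lasts longer than that of Fos, read 12.46, 12.05 and 11.48 in Lgr5+ basal, 12.07, 11.65 and 11.25 in Lgr5- basal and 10.91, 10.80 and 10.01 in luminal cells. Every basal array was above every luminal array, and replicate 3 was the lowest of its group in all 3 groups. The difference from luminal cells was 1.42 ± 0.32 (SE, 2.67-fold, adjusted p = 0.0038) for Lgr5+ basal and 1.08 ± 0.32 (SE, 2.11-fold, adjusted p = 0.0181) for Lgr5- basal. The second call was lost without Lgr5- basal replicate 1 or luminal replicate 3 (adjusted p up to 0.0729).

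Maff, a small Maf protein that has no activation domain of its own and pairs with other zipper proteins, read 9.68, 8.95 and 8.73 in Lgr5+ basal, 9.57, 9.24 and 8.73 in Lgr5- basal and 8.10, 7.94 and 7.25 in luminal cells. The basal arrays were all above the luminal ones, and replicate 1 was the highest and replicate 3 the lowest in each group. The difference was 1.35 ± 0.31 (SE, 2.55-fold, adjusted p = 0.00464) for Lgr5+ basal and 1.41 ± 0.31 (SE, 2.66-fold, adjusted p = 0.00388) for Lgr5- basal. A second Maff probe gave 0.42 (adjusted p = 0.241 over all detected probes), which did not pass, and 1.17 (adjusted p = 0.00625).

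Junb, which opposes Jun at many promoters, read 14.07, 13.77 and 13.73 in Lgr5+ basal, 13.82, 13.50 and 13.76 in Lgr5- basal and 13.20, 11.91 and 13.32 in luminal cells. Luminal replicate 2 was lower than every other array, and the luminal arrays lay below all basal arrays. The difference was 1.05 ± 0.32 (SE, 2.07-fold, adjusted p = 0.0206) for Lgr5+ basal and 0.89 ± 0.32 (SE, 1.85-fold, adjusted p = 0.0461) for Lgr5- basal. Without luminal replicate 2 it was 0.60 and 0.44, and the second did not pass (adjusted p = 0.0748). The Lgr5+ call was lost without Lgr5+ basal replicate 1 and when no detection filter was used (adjusted p up to 0.0675). The Lgr5- call was lost in 9 of 19 alternatives, among them without any single one of the 6 basal arrays (adjusted p up to 0.118).

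Jun, the main partner of Fos, went the other way and read 10.90, 10.70 and 10.86 in Lgr5+ basal, 10.70, 10.61 and 11.00 in Lgr5- basal and 11.75, 11.75 and 11.94 in luminal cells. All luminal arrays were above all basal arrays. The difference was -0.99 ± 0.16 (SE, 1.99-fold, adjusted p = 0.000489) for Lgr5+ basal and -1.04 ± 0.16 (SE, 2.06-fold, adjusted p = 0.000358) for Lgr5- basal. Atf3, a zipper factor induced by many kinds of stress that mostly represses, read 13.34, 12.82 and 13.14 in Lgr5+ basal, 12.80, 12.51 and 12.59 in Lgr5- basal and 13.73, 13.52 and 14.00 in luminal cells. Luminal cells were highest, Lgr5+ basal cells next and Lgr5- basal cells lowest, with no overlap between groups. The difference from luminal cells was -0.65 ± 0.19 (SE, 1.57-fold, adjusted p = 0.0164) for Lgr5+ basal and -1.12 ± 0.19 (SE, 2.18-fold, adjusted p = 0.000676) for Lgr5- basal. The Lgr5+ call was lost without Lgr5+ basal replicate 2, without luminal replicate 3, on the first BeadChip alone and with median centring (adjusted p up to 0.12). Atf3 in Lgr5+ basal minus Lgr5- basal was 0.47 ± 0.19 (SE, unadjusted p = 0.0323, adjusted p = 0.301).

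**Figure D2:**
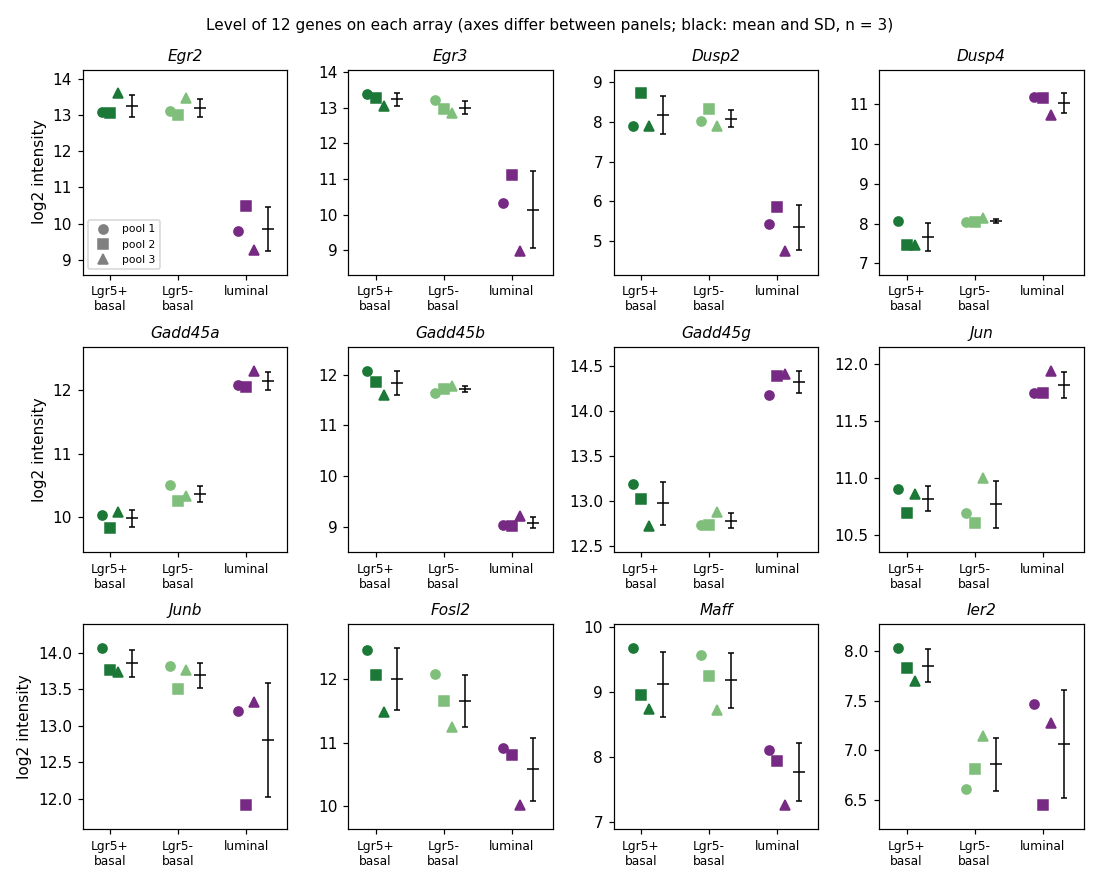
Points are the log2 intensities of 12 genes on single arrays, shaped by pool, with the mean and SD of the 3 arrays in black, and each panel has its own axis. Egr2, Egr3, Dusp2 and Gadd45b are higher on all 6 basal arrays than on the 3 luminal arrays, Dusp4, Gadd45a, Gadd45g and Jun are lower, and Ier2 is highest on the 3 Lgr5+ basal arrays.

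The dual-specificity phosphatases remove phosphate from MAP kinases and so end the signal that induced them. Of 5 listed genes 4 were tested. Dusp4, a nuclear phosphatase of ERK, read 8.07, 7.46 and 7.46 in Lgr5+ basal, 8.04, 8.03 and 8.13 in Lgr5- basal and 11.18, 11.13 and 10.73 in luminal cells. The luminal arrays stood far above the basal arrays, and the Lgr5+ basal arrays overlapped the Lgr5- basal ones. The difference was -3.35 ± 0.20 (SE, 10.2-fold, adjusted p = 3.33e-07) for Lgr5+ basal and -2.95 ± 0.20 (SE, 7.71-fold, adjusted p = 8.04e-07) for Lgr5- basal. Both other detected probes of Dusp4 gave differences of the same sign, from -3.97 to -2.43 in the first comparison and from -3.43 to -2.38 in the second. Dusp4 in Lgr5+ basal minus Lgr5- basal was -0.40 ± 0.20 (SE, adjusted p = 0.418).

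Dusp2, first known from activated lymphocytes, was opposite to Dusp4 and read 7.90, 8.72 and 7.90 in Lgr5+ basal, 8.03, 8.33 and 7.90 in Lgr5- basal and 5.42, 5.86 and 4.75 in luminal cells. All basal arrays were above all luminal arrays. The difference was 2.83 ± 0.31 (SE, 7.11-fold, adjusted p = 2.40e-05) for Lgr5+ basal and 2.74 ± 0.31 (SE, 6.69-fold, adjusted p = 3.02e-05) for Lgr5- basal. Its probe was detected on 1 of the 3 luminal arrays, so the luminal level lay at the edge of the background, and without background correction the differences were 1.26 and 1.19.

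Dusp6, which acts on ERK in the cytoplasm, read 13.95, 13.53 and 13.85 in Lgr5+ basal, 13.85, 13.52 and 13.78 in Lgr5- basal and 13.00, 13.04 and 13.12 in luminal cells. On the probe that stands for the gene the basal arrays were all above the luminal arrays, by 0.72 ± 0.17 (SE, 1.65-fold, adjusted p = 0.00449) for Lgr5+ basal and 0.66 ± 0.17 (SE, 1.58-fold, adjusted p = 0.00799) for Lgr5- basal. With median centring neither passed (adjusted p = 0.085 and 0.0795), and the second was also lost on the first BeadChip alone. A further Dusp6 probe gave 0.93 and 0.92 (adjusted p = 0.00852 and 0.0101), and another gave -0.08 (adjusted p = 0.835), where its groups overlapped, and 0.98 (adjusted p = 0.017). Dusp1, a nuclear phosphatase that is itself an immediate-early gene, read 14.47, 14.25 and 14.32 in Lgr5+ basal, 14.02, 13.95 and 14.15 in Lgr5- basal and 13.77, 14.04 and 13.59 in luminal cells. Lgr5+ basal cells were above both other groups, whose arrays overlapped. The difference from luminal cells was 0.54 ± 0.17 (SE, 1.46-fold, adjusted p = 0.0192) for Lgr5+ basal and 0.24 ± 0.17 (SE, 1.18-fold, adjusted p = 0.272) for Lgr5- basal. The first was lost without replicate 1 of Lgr5+ basal or replicate 1 or 3 of luminal, on the first BeadChip alone and with median centring (adjusted p up to 0.152). Its probe reached 74.2% of an array's highest intensity.

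The Gadd45 genes of the growth arrest group differed from luminal cells in both directions. The 3 Gadd45 proteins are small acidic proteins that bind MAP kinase kinases and cell cycle regulators after DNA damage and other stress. Gadd45b, the member best known as a target of TGF-beta and NF-kappaB, read 12.08, 11.86 and 11.59 in Lgr5+ basal, 11.65, 11.73 and 11.78 in Lgr5- basal and 9.03, 9.01 and 9.21 in luminal cells. All basal arrays were above all luminal arrays, and the spread within each group was small. The difference was 2.76 ± 0.17 (SE, 6.78-fold, adjusted p = 2.96e-07) for Lgr5+ basal and 2.64 ± 0.17 (SE, 6.22-fold, adjusted p = 3.84e-07) for Lgr5- basal.

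Gadd45a, a target of p53, read 10.04, 9.83 and 10.08 in Lgr5+ basal, 10.50, 10.25 and 10.34 in Lgr5- basal and 12.07, 12.04 and 12.30 in luminal cells. Luminal cells were highest on every array, and the Lgr5+ basal arrays lay below the Lgr5- basal arrays. The difference from luminal cells was -2.15 ± 0.16 (SE, 4.45-fold, adjusted p = 1.17e-06) for Lgr5+ basal and -1.77 ± 0.16 (SE, 3.42-fold, adjusted p = 5.20e-06) for Lgr5- basal. For Lgr5+ basal against Lgr5- basal it was -0.38 ± 0.16 (SE, unadjusted p = 0.0345, adjusted p = 0.308). A second Gadd45a probe gave -0.08 between the basal groups (adjusted p = 0.913 over all detected probes), which overlapped on it. Gadd45g, the third relative, read 13.18, 13.02 and 12.72 in Lgr5+ basal, 12.73, 12.73 and 12.88 in Lgr5- basal and 14.18, 14.38 and 14.41 in luminal cells. The luminal arrays were all above the basal arrays, whose groups overlapped. The difference was -1.35 ± 0.17 (SE, 2.55-fold, adjusted p = 6.53e-05) for Lgr5+ basal and -1.54 ± 0.17 (SE, 2.92-fold, adjusted p = 2.37e-05) for Lgr5- basal. Gadd45a, Gadd45b and Gadd45g each had a second detected probe, and all 3 second probes passed in the same direction in both comparisons with luminal cells. Btg2, an antiproliferative target of p53, read between 4.59 and 6.34 over the 9 arrays, close to the background, and did not pass in any comparison (smallest adjusted p = 0.434).

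The KLF zinc-finger factors restrain proliferation in many tissues. Of the 3 genes, all tested, Klf6 was lower than in luminal cells in both basal populations, Klf4 in Lgr5- basal cells, and Klf2 did not pass. Klf6 read 13.20, 12.80 and 13.12 in Lgr5+ basal, 12.68, 12.26 and 12.84 in Lgr5- basal and 13.93, 13.28 and 14.24 in luminal cells. Luminal cells were highest, with every luminal array above every basal array. The difference was -0.77 ± 0.26 (SE, 1.71-fold, adjusted p = 0.028) for Lgr5+ basal and -1.22 ± 0.26 (SE, 2.33-fold, adjusted p = 0.00266) for Lgr5- basal. The Lgr5+ call was lost without Lgr5+ basal replicate 2, luminal replicate 1 or luminal replicate 3, on the first BeadChip alone, with no detection filter and with median centring (adjusted p up to 0.117).

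Klf4, one of the reprogramming factors, read 11.80, 11.72 and 11.69 in Lgr5+ basal, 11.55, 11.33 and 11.41 in Lgr5- basal and 12.20, 11.57 and 12.50 in luminal cells. Luminal replicate 2 lay between the Lgr5- basal and the Lgr5+ basal arrays, and the other luminal arrays lay above all of them. The difference was -0.35 ± 0.22 (SE, 1.28-fold, adjusted p = 0.212) for Lgr5+ basal and -0.66 ± 0.22 (SE, 1.58-fold, adjusted p = 0.0317) for Lgr5- basal. The first passed without luminal replicate 2, at -0.61 (adjusted p = 0.0119), and was -0.15 without luminal replicate 3 (adjusted p = 0.594) and -0.12 on the first BeadChip alone (adjusted p = 0.722). The second was lost in 9 of 19 alternatives, among them without any single Lgr5- basal array and without luminal replicate 1 or 3 (adjusted p up to 0.203). The further Klf4 probes, -0.62 and -0.53 in the first comparison and -0.62 and -0.48 in the second, did not pass. Klf2, which keeps endothelium and lymphocytes quiescent, differed by -0.18 ± 0.22 (SE, 1.13-fold, adjusted p = 0.524) and -0.53 ± 0.22 (SE, 1.44-fold, adjusted p = 0.0719), and the second passed without luminal replicate 2 (adjusted p = 0.00716) and without background correction.

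Of the NR4A orphan nuclear receptors, immediate-early factors that act without a known ligand, only Nr4a2 was tested. It read 8.37, 8.05 and 6.99 in Lgr5+ basal, 8.06, 7.30 and 7.34 in Lgr5- basal and 6.70, 6.60 and 5.99 in luminal cells. All luminal arrays were below all basal arrays, and Lgr5+ basal replicate 3 was the lowest basal array. The difference was 1.37 ± 0.36 (SE, 2.58-fold, adjusted p = 0.00887) for Lgr5+ basal and 1.13 ± 0.36 (SE, 2.2-fold, adjusted p = 0.0246) for Lgr5- basal. The second was lost without Lgr5- basal replicate 1 or luminal replicate 3, without background correction and with no detection filter (adjusted p up to 0.0956), and without background correction the differences were 0.70 and 0.54. Nr4a1 had 1 probe, detected on 0 of 9 arrays. Nr4a3 had 3 probes, of which 1 was detected on 2 Lgr5- basal arrays and the others on none. Neither gene reached the 3 arrays that the test required.

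Among the other early response and feedback genes, Ier2 had the largest difference between the 2 basal populations of all 32 members. It encodes a small nuclear protein of the early growth factor response and read 8.04, 7.83 and 7.70 in Lgr5+ basal, 6.61, 6.82 and 7.14 in Lgr5- basal and 7.47, 6.44 and 7.27 in luminal cells. Each Lgr5+ basal array was above every Lgr5- basal and luminal array, and the Lgr5- basal and luminal arrays overlapped. Between the basal groups the difference was 1.00 ± 0.26 (SE, 2-fold, adjusted p = 0.117), with 1.42, 1.02 and 0.56 in pools 1, 2 and 3. Over 19 alternatives its adjusted p ran from 0.0385 to 0.417 and passed only without luminal replicate 2. Against luminal cells the difference was 0.79 ± 0.26 (SE, 1.73-fold, adjusted p = 0.0278) for Lgr5+ basal and -0.20 ± 0.26 (SE, 1.15-fold, adjusted p = 0.569) for Lgr5- basal. The first was lost without Lgr5+ basal replicate 1 or 2, with no detection filter and with median centring (adjusted p up to 0.0867), and without luminal replicate 2 it was 0.49 (adjusted p = 0.0726). The probe was dim, at most 1.36% of an array's highest intensity, and without background correction the difference between the basal groups was 0.54.

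Ier3, an early gene tied to survival and ERK signalling, read 14.50, 14.44 and 14.28 in Lgr5+ basal, 14.11, 13.95 and 14.04 in Lgr5- basal and 13.54, 13.99 and 12.94 in luminal cells. The Lgr5+ basal arrays were highest, and luminal replicate 2 lay within the Lgr5- basal range. The difference from luminal cells was 0.92 ± 0.24 (SE, 1.89-fold, adjusted p = 0.00834) for Lgr5+ basal and 0.54 ± 0.24 (SE, 1.46-fold, adjusted p = 0.0885) for Lgr5- basal, and the second passed without luminal replicate 2, at 0.79 (adjusted p = 0.0111). It was 0.26 both without luminal replicate 3 (adjusted p = 0.294) and on the first BeadChip alone (adjusted p = 0.401). Nfkbia, the inhibitor that holds NF-kappaB in the cytoplasm and is one of its targets, read 11.19, 11.73 and 11.64 in Lgr5+ basal, 11.38, 11.45 and 11.55 in Lgr5- basal and 12.43, 11.84 and 12.08 in luminal cells. The luminal arrays were above all basal arrays. The difference was -0.60 ± 0.20 (SE, 1.51-fold, adjusted p = 0.0313) for Lgr5+ basal and -0.66 ± 0.20 (SE, 1.57-fold, adjusted p = 0.0223) for Lgr5- basal, on a probe with the authors' flag for exclusion. The Lgr5+ call was lost in 7 of 19 alternatives, among them without replicate 1 of Lgr5+ basal or replicate 1 or 3 of luminal (adjusted p up to 0.306). The Lgr5- call was lost in 6, among them without replicate 1 or 2 of Lgr5- basal or replicate 1 of luminal (adjusted p up to 0.162). Both were lost when flagged probes were left out, and the remaining probe of the gene gave -0.41 and -0.70.

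Zfp36, which binds AU-rich messages and speeds their decay, read 14.49, 14.51 and 14.41 in Lgr5+ basal, 14.47, 14.03 and 14.33 in Lgr5- basal and 14.14, 14.10 and 14.30 in luminal cells. The groups overlapped apart from Lgr5+ basal against luminal, and the differences from luminal cells were 0.29 ± 0.16 (SE, 1.22-fold, adjusted p = 0.16) and 0.09 ± 0.16 (SE, 1.07-fold, adjusted p = 0.682). Sgk1, a serum- and glucocorticoid-induced kinase, differed by 0.01 ± 0.20 (SE, 1.01-fold, adjusted p = 0.966) and 0.08 ± 0.20 (SE, 1.06-fold, adjusted p = 0.769). Ier5 had 1 probe, detected on 0 of 9 arrays. The promoter of Zfp36 is shown beside that of Egr2 because it also carries a CArG box, although the 2 genes differed in how far they separated the groups. It lies at chr7:28379179-28379478 on the minus strand (GRCm38.p6, RefSeq), and the capitals mark the box, which begins 58 bases before the start.
Zfp36: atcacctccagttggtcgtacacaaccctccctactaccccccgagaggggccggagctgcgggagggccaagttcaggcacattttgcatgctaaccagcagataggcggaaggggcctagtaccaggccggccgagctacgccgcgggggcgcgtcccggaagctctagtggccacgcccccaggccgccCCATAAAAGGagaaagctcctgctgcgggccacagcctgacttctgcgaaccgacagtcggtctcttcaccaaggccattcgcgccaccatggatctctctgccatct

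Of 6 listed heat-shock chaperones 5 were tested under that name. On the probes that stand for the genes, the differences of the basal populations lay between 0.01 and 0.11 (smallest adjusted p = 0.846), and further probes, given below, differed by more. Against luminal cells 1 of the 5 genes passed, and Hsph1, under its older name, is given below. Hspb1, a small heat-shock protein that binds unfolding proteins and actin, read 12.39, 12.12 and 12.12 in Lgr5+ basal, 12.14, 12.22 and 12.24 in Lgr5- basal and 11.58, 11.84 and 11.55 in luminal cells. All basal arrays were above all luminal arrays. The difference was 0.55 ± 0.16 (SE, 1.47-fold, adjusted p = 0.0137) for Lgr5+ basal and 0.54 ± 0.16 (SE, 1.46-fold, adjusted p = 0.0165) for Lgr5- basal. The first was lost without Lgr5+ basal replicate 1, the second without Lgr5- basal replicate 2 or 3 or luminal replicate 1 or 3, and both on the first BeadChip alone and with median centring (adjusted p up to 0.189 and 0.213).

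Hspa1a, an inducible Hsp70, read 12.94, 12.53 and 13.20 in Lgr5+ basal, 13.06, 12.42 and 13.04 in Lgr5- basal and 12.82, 11.56 and 13.02 in luminal cells. Luminal replicate 2 was the lowest array and the groups overlapped, with differences from luminal cells of 0.42 ± 0.36 (SE, 1.34-fold, adjusted p = 0.362) and 0.37 ± 0.36 (SE, 1.29-fold, adjusted p = 0.444). Its further probes disagreed in Lgr5+ basal against luminal cells, at 0.64 (adjusted p = 0.0476), which passed, and -0.77 (adjusted p = 0.0989), and gave 0.45 and 0.06 for Lgr5- basal (adjusted p = 0.163 and 0.922). Hspa1b, its near-identical copy, read 9.57, 9.38 and 10.72 in Lgr5+ basal, 9.82, 9.31 and 10.27 in Lgr5- basal and 9.70, 9.72 and 10.84 in luminal cells. Replicate 3 was the highest of each group, and the differences were -0.19 ± 0.41 (SE, 1.14-fold, adjusted p = 0.726) and -0.28 ± 0.41 (SE, 1.22-fold, adjusted p = 0.622), with -0.95 and -0.01 on its further probe (adjusted p = 0.0631 and 0.981). Since the 2 genes are near-identical, which of them a probe reports is uncertain.

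Hspa8, the Hsp70 that all cells make, read 14.50, 14.45 and 14.30 in Lgr5+ basal, 14.45, 14.31 and 14.32 in Lgr5- basal and 14.23, 14.03 and 14.01 in luminal cells. On the probe that stands for the gene both basal groups lay above the luminal group without overlap, but the differences, 0.33 ± 0.15 (SE, 1.26-fold, adjusted p = 0.0905) and 0.27 ± 0.15 (SE, 1.21-fold, adjusted p = 0.165), did not pass. Both passed without background correction. A second probe passed in both comparisons, at 0.53 and 0.47 (adjusted p = 0.0248 and 0.0466), while another gave -0.81 and 0.19 (adjusted p = 0.0768 and 0.703). The probe that stands for the gene reached 75.6% of an array's highest intensity. Dnajb1, the co-chaperone that feeds unfolded proteins to Hsp70, differed by 0.07 ± 0.17 (SE, 1.05-fold, adjusted p = 0.752) and -0.04 ± 0.17 (SE, 1.03-fold, adjusted p = 0.884).

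The promoters of the 3 tested heat-shock genes whose windows carry GAANNTTC, 1 form of the inverted GAA repeat, are shown in turn. The match is in capitals (RefSeq, GRCm38.p6, 250 bases before to 50 after the start). Other arrangements of the repeat were not searched, so a gene without a match may still carry sites of heat-shock factors. The Hspb1 window lies at chr5:135887669-135887968 on the plus strand and holds 2 matches, which begin 117 and 97 bases before the start.
Hspb1: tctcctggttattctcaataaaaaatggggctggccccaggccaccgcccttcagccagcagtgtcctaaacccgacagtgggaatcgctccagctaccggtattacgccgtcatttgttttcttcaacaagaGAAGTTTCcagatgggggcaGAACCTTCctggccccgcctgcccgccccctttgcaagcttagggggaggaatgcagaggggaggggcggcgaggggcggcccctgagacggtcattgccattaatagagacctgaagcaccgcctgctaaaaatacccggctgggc
The Hspa1a window lies at chr17:34972107-34972406 and the Hspa1b window at chr17:34959189-34959488, both on the minus strand, each with 1 match that begins 104 bases before the start. They are shown together because they are identical at 296 of 300 positions.
Hspa1a: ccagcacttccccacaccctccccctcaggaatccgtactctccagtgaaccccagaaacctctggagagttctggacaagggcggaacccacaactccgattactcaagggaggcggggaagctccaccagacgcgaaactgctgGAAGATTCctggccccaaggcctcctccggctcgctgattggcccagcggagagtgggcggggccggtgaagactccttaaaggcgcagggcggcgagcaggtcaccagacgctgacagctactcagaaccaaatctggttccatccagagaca
Hspa1b: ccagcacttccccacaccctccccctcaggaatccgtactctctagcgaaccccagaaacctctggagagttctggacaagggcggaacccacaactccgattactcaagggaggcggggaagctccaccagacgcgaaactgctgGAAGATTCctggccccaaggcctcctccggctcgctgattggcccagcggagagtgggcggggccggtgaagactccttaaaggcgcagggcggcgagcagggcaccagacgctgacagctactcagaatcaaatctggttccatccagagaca
GAANNTTC reads the same on both strands and occurs in 7.86% of all 32851 windows. By gene, at least 1 window held it for 9.04% of 27025 genes and for 7 of the 34 listed genes with a window, which also include Fosl2, Hsph1, Jun and Sgk1. The cyclic AMP response element TGACGTCA, also the same on both strands, was in 1.79% of windows and in at least 1 window of 2.03% of genes. Of the 34 listed genes it was found for 4, Btg2, Dusp1, Maff and Ppp1r15a. No listed gene held more than 1 of the 3 kinds of motif, so matches of different kinds did not overlap.

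**Figure D3:**
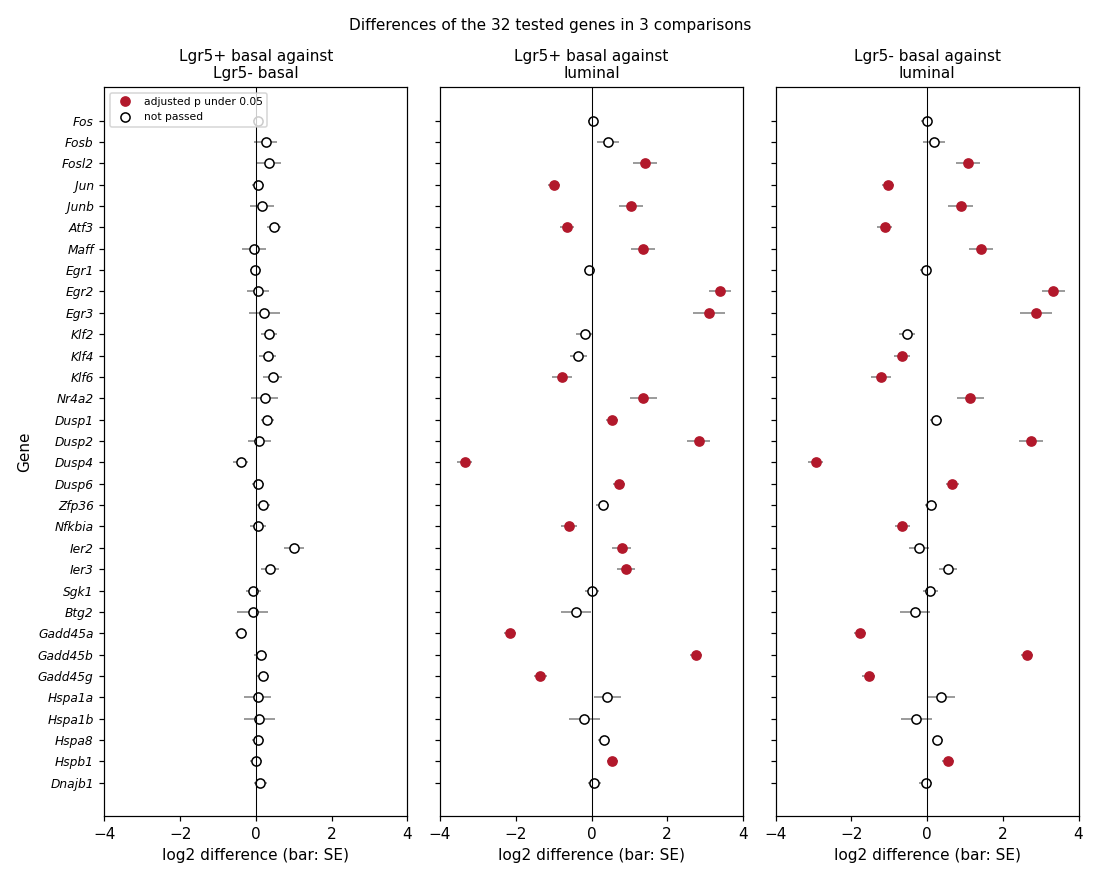
Each point is the log2 difference of 1 of the 32 tested genes, with its SE as a bar, in the 3 comparisons, and filled points have an adjusted p under 0.05. In the left panel 0 points are filled and Ier2 lies farthest from 0, at 1.00, while in the other panels 20 and 18 are filled on both sides of 0.

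The remaining 5 of the 40 genes had no probe under the listed name. Through RefSeq synonyms 3 of them were found under an older name, and they are kept apart from the counts above. Ppp1r15a (as Myd116), the phosphatase subunit that ends the integrated stress response, read 12.79, 12.46 and 12.22 in Lgr5+ basal, 12.48, 12.31 and 12.30 in Lgr5- basal and 11.48, 10.51 and 10.66 in luminal cells. All basal arrays were above all luminal arrays, and the difference was 1.61 ± 0.25 (SE, 3.05-fold, adjusted p = 0.000374) for Lgr5+ basal and 1.48 ± 0.25 (SE, 2.79-fold, adjusted p = 0.000695) for Lgr5- basal. Hsph1 (as Hsp105), an exchange factor for Hsp70, read 10.64, 10.59 and 10.23 in Lgr5+ basal, 10.33, 10.41 and 10.30 in Lgr5- basal and 8.97, 9.77 and 8.71 in luminal cells. It too was higher on all basal arrays, by 1.33 ± 0.25 (SE, 2.52-fold, adjusted p = 0.00133) and 1.19 ± 0.25 (SE, 2.29-fold, adjusted p = 0.00288). Jund (as Jund1), the Jun protein most often present in resting cells, read 10.40, 9.91 and 9.35 in Lgr5+ basal, 9.72, 9.23 and 9.41 in Lgr5- basal and 10.58, 8.48 and 10.76 in luminal cells. Luminal replicate 2 was the lowest array and the other luminal arrays the highest, and the differences were -0.05 ± 0.52 (SE, 1.04-fold, adjusted p = 0.946) and -0.48 ± 0.52 (SE, 1.4-fold, adjusted p = 0.489). The first changed sign without luminal replicate 1, luminal replicate 3 or Lgr5+ basal replicate 3, and the second was -1.21 and passed without luminal replicate 2 (adjusted p = 0.00928). The second was -0.16 without luminal replicate 1, -0.07 without luminal replicate 3 and -0.06 on the first BeadChip alone, and passed in none of these. For Dusp5 and Fosl1 no probe was found.

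The arrays of a group did not stand in the same order for the members as for all genes. Lgr5+ basal replicate 1 was the highest of its group for 22 of the 32 members, against 35.7% of all genes. Lgr5- basal replicate 2 was the lowest of its group for 23 members, against 28.2% of all genes, and the highest for 1. In luminal cells replicate 3 was highest for 18 members, against 34.9% of all genes. The median SD within the luminal group was 0.34 for the members and 0.26 for all genes, while in Lgr5+ basal it was 0.19 and 0.23, and in Lgr5- basal 0.18 and 0.18. Pools 1 and 2 were run on the first BeadChip and pool 3 on the second. In the comparison of the basal groups 16 of the 32 members had the same sign in all 3 pools. That share was not taken over all genes, so nothing is read from it. In pools 1, 2 and 3 the difference was above 0 for 24, 25 and 21 members. For all genes the shares were 53.9%, 52.3% and 50.6%.

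Of the 32 genes, 13 had more than 1 detected probe. In the comparison of the basal groups 7 of the 13 had probes of mixed sign, and no probe passed. Some second probes were lower in Lgr5+ basal cells by close to 1 on the log2 scale while the probe that stands for the gene lay near 0. A further Dusp6 probe read 7.53, 7.44 and 8.51 in Lgr5+ basal and 9.23, 8.62 and 8.79 in Lgr5- basal cells, and the difference was -1.06 (adjusted p = 0.122 over all detected probes). A further Hspa8 probe read 11.53, 12.27 and 13.09 and 13.53, 13.03 and 13.33, a difference of -1.0 (adjusted p = 0.204). All 3 Lgr5+ basal arrays for Dusp6, and replicates 1 and 2 for Hspa8, were lower than every Lgr5- basal array. The like values were -0.93 for Hspa1b, -0.83 for Hspa1a and -0.75 for Maff. In the comparison of Lgr5+ basal with luminal cells all detected probes passed for 6 of the 13 genes, some for 5 and none for 2, and 3 had mixed sign. In that of Lgr5- basal with luminal cells the counts were 8, 3 and 2, with 0 of mixed sign. In no comparison did 2 probes of a gene pass in opposite directions.

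**Figure D4:**
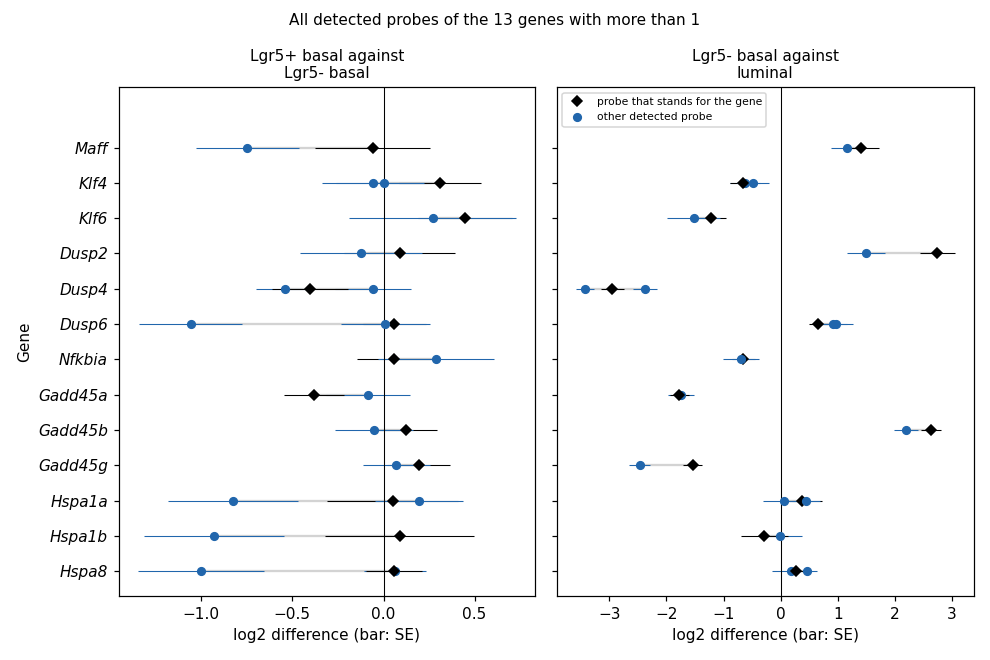
Each point is the log2 difference of 1 detected probe, with its SE as a bar, for the 13 genes with more than 1, and black diamonds are the probes that stand for the genes. Between the basal groups (left) second probes of Dusp6, Hspa8, Hspa1b, Hspa1a and Maff lie between -1.06 and -0.75, and for Lgr5- basal against luminal cells (right) the probes of a gene share a side of 0.

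Wider lists of the same biology were read in the same way. Of 32 further immediate-early genes 29 were tested. Between the basal groups 0 passed, with 2 at an unadjusted p under 0.05 and a median difference of 0.12. Against luminal cells 14 were higher and 3 lower in each basal population, with medians of 0.41 and 0.51. That is 58.6% of the list in each, against 48.8% and 44.2% of all genes. The smallest p-values belonged to Arc, Areg and Ctgf. Arc, a synaptic immediate-early gene that is also a target of serum response factor, was higher by 5.59 ± 0.30 (SE, 48.2-fold, adjusted p = 1.69e-07) in Lgr5+ basal and 5.33 ± 0.30 (SE, 40.2-fold, adjusted p = 2.12e-07) in Lgr5- basal. Areg, the ligand of the EGF receptor made by hormone-sensing luminal cells, was lower, with differences of -4.36 ± 0.26 (SE, 20.5-fold, adjusted p = 3.26e-07) and -3.90 ± 0.26 (SE, 14.9-fold, adjusted p = 6.91e-07). Ctgf, a secreted matrix protein and a target of YAP and TGF-beta, was higher by 4.18 ± 0.41 (SE, 18.2-fold, adjusted p = 1.26e-05) and 4.03 ± 0.41 (SE, 16.4-fold, adjusted p = 1.62e-05).

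Of 20 further heat-shock and chaperone genes 16 were tested. Lgr5+ and Lgr5- basal cells differed at 0 of them, with 1 at an unadjusted p under 0.05 and a median of -0.05. Lgr5+ basal cells were higher than luminal cells at 4 and lower at 4, and Lgr5- basal cells higher at 4 and lower at 2, with medians of 0.07 and 0.09. These are 50% and 37.5% of the list, against 48.8% and 44.2% of all genes, and nothing is read from shares so near the background. Bag3, which joins Hsp70 to autophagy, differed by 1.57 ± 0.21 (SE, 2.96-fold, adjusted p = 0.000111) and 1.45 ± 0.21 (SE, 2.73-fold, adjusted p = 0.000203). Hspa2, an Hsp70 best known from testis, differed by 1.36 ± 0.16 (SE, 2.57-fold, adjusted p = 4.86e-05) and 1.09 ± 0.16 (SE, 2.14-fold, adjusted p = 0.000245). Cryab, a small heat-shock protein of muscle and lens, differed by 1.20 ± 0.21 (SE, 2.3-fold, adjusted p = 0.000679) and 1.54 ± 0.21 (SE, 2.91-fold, adjusted p = 0.000118). Dnajc3, a chaperone of the endoplasmic reticulum, was lower in basal cells, with differences of -1.60 ± 0.20 (SE, 3.03-fold, adjusted p = 6.32e-05) and -1.55 ± 0.20 (SE, 2.93-fold, adjusted p = 7.84e-05).

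Of 22 upstream factors and kinases 19 were tested. Between the basal groups 0 passed, with 0 at an unadjusted p under 0.05 and a median of 0.02. Against luminal cells 7 were higher and 2 lower in Lgr5+ basal, and 8 higher and 2 lower in Lgr5- basal, with medians of 0.31 and 0.30. These are 47.4% and 52.6% of the list, where 48.8% and 44.2% of all genes passed, and nothing is read from either share. Srf, serum response factor itself, was higher by 1.16 ± 0.18 (SE, 2.24-fold, adjusted p = 0.000351) and 1.25 ± 0.18 (SE, 2.37-fold, adjusted p = 0.000222). Trp53, the mouse p53 gene, was higher by 1.24 ± 0.22 (SE, 2.35-fold, adjusted p = 0.00101) and 1.37 ± 0.22 (SE, 2.58-fold, adjusted p = 0.000515). Mapk9, a JNK kinase that phosphorylates Jun, was lower, with differences of -1.10 ± 0.15 (SE, 2.14-fold, adjusted p = 0.000135) and -1.10 ± 0.15 (SE, 2.15-fold, adjusted p = 0.000132).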

How the data were processed

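Total RNA of 9 sorted samples was measured on Illumina MouseWG-6 v2.0 BeadChips, with up to 125 ng per sample, per the labels. The deposited raw table holds, per the file headers, intensities that were not normalized, on a linear scale, and a detection fraction, which the file headers call a p-value but which rises with signal. Per the file headers, a flag marks probes that the authors left out for low signal or poor annotation (26391 of 45281). The second deposited table holds log2 values from the authors, used here as the main values. GenomeStudio and limma are named, without versions, in the submitters' processing notes. The correction and normalization behind the log2 values are not stated there or in the labels. Background correction by normexp with an offset of 16 and quantile normalization of the raw intensities came within 0.0284 of them on every array.

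Probes with a detection value above 0.99 on at least 3 arrays were kept, and the probe with the highest mean over 9 arrays stood for each gene name. Group means were fitted to all 9 arrays with limma 3.58.1 in R 4.3.3 (6 residual and 4.40 prior degrees of freedom), and p-values were adjusted over 12670 genes by Benjamini-Hochberg at 0.05. Fold changes are 2 to the power of the log2 difference. The test of Lgr5+ against Lgr5- basal cells was run on simulated data with each gene's own spread and no pool effect. It recovered 52 of 100 genes changed by 1 on the log2 scale and 92 of 100 changed by 2, with 7 false calls. Pool numbers come from the labels and mark shared pools, so they pair the samples: residuals of same-numbered samples correlated at 0.0900 to 0.442 over 9 pairs. Levels are not compared between probes. All members are accounted for. Members called, or whose call depends on an alternative, are named with values, and of each further list the 3 genes with the smallest p against luminal cells are named. The members and lists were chosen with earlier results of these data known. Promoter sequences are RefSeq's for GRCm38.p6 and were matched by symbol to 34 of the 40 genes. Alternatives are listed at the end.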

Additional observations from a re-analysis of the deposited data

How the results depend on the processing

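The counts and medians were recomputed under alternative settings. Single genes were followed under 19 alternatives only where they passed in the main fit or in at least 1 of these. Against luminal cells the genes named from the further lists or under an older name were followed as well. In the comparison of the 2 basal groups the count of members that passed was 0, and over the fits that left out 1 array it ran from 0 to 1, with Ier2 passing without luminal replicate 2. The count over all genes, 127 with all arrays, ran from 52 to 649, the highest without Lgr5+ basal replicate 3, and was 53 with median centring and 388 on the first BeadChip alone. The members' median difference ran from 0.0603 to 0.163 over the fits that left out 1 array (0.161 without Lgr5+ basal replicate 2). For Lgr5+ basal against luminal cells the count of 20 fell to 13 with median centring (9 higher, 4 lower) and to 15 on the first BeadChip alone, and ran from 15 to 20 without single arrays. The count over all genes fell as well, from 6179 to 4190 and 5785, and ran from 5267 to 6074 without single arrays. The members' median of 0.31 was 0.178 with no detection filter, 0.0282 with every detected probe tested on its own, and 0.0997 to 0.337 without single arrays, the lowest without luminal replicate 2. For Lgr5- basal against luminal cells the count of 18 was 14 with median centring and on the first BeadChip alone, and ran from 13 to 19 without single arrays, with medians from -0.04 to 0.16. Over all genes the count of 5601 fell to 3805 and 4823, and ran from 4719 to 5749 without single arrays. With the pool as a replicate block 0, 20 and 18 members passed in the 3 comparisons, and the pairing changed no call of a member. The counts over all genes with this block were 155, 6718 and 6173. With the BeadChip as a block the members' counts were also 0, 20 and 18, and 189, 6593 and 6029 of all genes passed. Of the 20 and 18 calls against luminal cells, 12 and 11 passed in all 19 alternatives, and 8 and 7 were lost in at least 1. Among the genes followed singly, the sign turned for Jund in Lgr5+ basal against luminal cells, where no fit passed. Its difference was -0.05 with all arrays and 0.63 on the first BeadChip alone. It was 0.27 and 0.36 without replicate 1 or 3 of luminal and 0.22 without Lgr5+ basal replicate 3. Over all fits without 1 array it ran from -0.78 to 0.36. Signs of the other members were not followed one by one, and their split did move. For Lgr5- basal against luminal cells 17 members were higher and 15 lower with all arrays, and 21 and 11 without luminal replicate 3. The cause of these shifts was not tested. Signals near the background (Btg2, Dusp2 in luminal cells, Ier2) and near the top of the scale (Egr1, Fos) limit what the arrays can resolve.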
